A study of Mus musculus with 35 samples.

Results

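Bone marrow cells titled SMP were compared with bone marrow cells titled cMoP, 4 arrays against 4, out of the 35 arrays of a survey of innate immune cells. The labels name SMP as the monocyte progenitor of SatM, an atypical monocyte-like cell that the same study profiled, and cMoP as the common monocyte progenitor. The members were chosen by title: SMP_1, SMP_2, SMP_WT_1 and SMP_WT_2 on one side, and cMoP_1, cMoP_2, cMoP_WT_1 and cMoP_WT_2 on the other. Both groups came from male C57BL/6J mice 8 weeks old, with no treatment or altered allele given, and were sorted by flow cytometry. The sort antibodies and gates are not given in the labels. The labels give no meaning for WT beyond the title, so the 2 numbered and the 2 WT-titled arrays of each group are treated as 2 sets. Nothing in the labels says that arrays of a group came from separate animals, so the p-values measure only the spread between these samples, which may be technical.

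Total RNA was hybridised to Affymetrix Mouse430_2 arrays, and the deposited value of a gene is a log2 expression value. A level below means that value, and a difference means SMP minus cMoP, so that 1 unit is a doubling. Where 4 values of a group are listed, they stand in the order numbered 1, numbered 2, WT-titled 1, WT-titled 2. The lowest value of the table was 2.30, and 49.0% to 51.2% of the probe sets of these 8 arrays lay within 0.05 of it, which is what being at the lowest value means below. Where every array of a group lay there, the fold is written as at least that size. Some probe sets repeat a low value of their own on several arrays, such as 3.14 for Gata2, and such values have no order either. The number of arrays limits the precision.

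Granulocytes and monocytes arise in the marrow from a shared granulocyte-monocyte progenitor (GMP), and a monocyte-dendritic cell progenitor (MDP) lies upstream of cMoP in the usual scheme. Monocyte commitment depends on the transcription factors PU.1 and IRF8 and on growth through the CSF-1 receptor. Basophils and mast cells instead depend on GATA2, carry the high-affinity IgE receptor on their surface and store histamine and proteases in granules.

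Of 10986 genes tested with limma, 3686 (33.6%) passed an adjusted p under 0.05 and an absolute difference of at least 1. In SMP, 1342 genes rose (12.2% of those tested) and 2344 fell (21.3%). The 4 arrays of SMP and of cMoP did not overlap for 33.4% of the tested genes, with SMP above for 12.9% and below for 20.6%. A gene entered the test if at least 2 of the 8 arrays lay above their own median, and the median difference of those genes was -0.21. All 3686 differed in the same direction in the numbered and in the WT-titled arrays. The calls came from a fit of both sets together, which nearly fixes the agreement in direction, so it is no replication. By themselves the numbered arrays called 2572 genes and the WT-titled arrays 1359, with 2 arrays a group. Of the 3686, 2561 passed in the same direction in each of the 8 fits that left out 1 array. Correlations between arrays over the tested genes were 0.873 to 0.946 within SMP, 0.93 to 0.993 within cMoP and 0.741 to 0.802 between the groups. The arrays cMoP_1 and cMoP_2 (r = 0.993) lay closer to each other than any other pair, and with their average counted as 1 array 2899 genes passed. The shares of 12.2% and 21.3% are the background of every list count below. A gene that passed the filter through 1 group alone had to differ, so the counts describe the tested members only. This holds for every gene given below as 2.30 in all arrays of 1 group, in whichever list it is counted. In sorted bulk samples, fewer cells of a type and less RNA per cell cannot be told apart.

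The labels were set against 4 marker genes. Gata2, the master regulator named above, measured 14.35, 14.42, 14.86 and 14.24 in SMP, against 3.14, 3.14, 4.35 and 3.16 in cMoP. Ms4a2, the beta chain of the IgE receptor, measured 13.38, 13.60, 12.95 and 13.66 in SMP and 2.30 in every cMoP array. The groups did not overlap for either gene, and stood apart by 11.02 ± 0.30 for Gata2 (SE, adjusted p = 2.2e-06) and by 11.10 ± 0.23 for Ms4a2 (adjusted p = 1.31e-06), at least 2200-fold for the second. Csf1r, the CSF-1 receptor, measured 6.93, 8.44, 2.96 and 2.30 in SMP, against 13.74, 13.65, 12.03 and 11.77 in cMoP. Irf8 measured 3.32, 3.32, 6.41 and 2.30 in SMP, against 11.38, 11.06, 12.18 and 11.59 in cMoP. Csf1r fell by 7.64 ± 0.70 (SE, adjusted p = 0.000228) and Irf8 fell by 7.71 ± 0.80 (adjusted p = 0.000402), and no SMP array reached a cMoP array for either gene. Within SMP the numbered arrays held more Csf1r than the WT-titled arrays, and SMP_WT_1 held the most Irf8. The monocyte label of SMP goes against these markers: of 7 monocyte markers measured, the summed level was 38.35 to 49.83 over the SMP arrays and 83.38 to 87.20 over the cMoP arrays, while the 7 basophil markers measured summed to 92.12 to 95.85 in SMP and 23.70 to 25.77 in cMoP. The SMP arrays are called by their title here, without a claim to a lineage, and the part of basophils or their precursors within the sort was not tested.

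**Figure D1:**
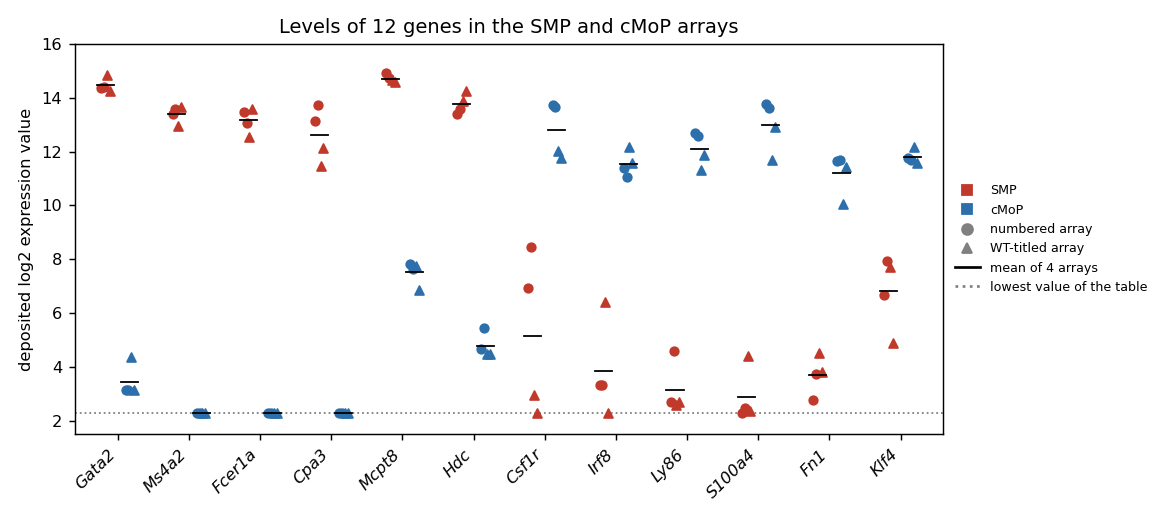
Deposited log2 expression values (y axis) of 12 genes (x axis) in the 4 SMP arrays (red, left of each pair) and the 4 cMoP arrays (blue), with circles for numbered arrays, triangles for WT-titled arrays, black lines for the means and a dotted line at the lowest value, 2.30. Gata2, Ms4a2, Fcer1a, Cpa3, Mcpt8 and Hdc lie high in all SMP arrays, and Csf1r, Irf8, Ly86, S100a4, Fn1 and Klf4 in all cMoP arrays; the SMP arrays spread most at Csf1r, between 2.30 and 8.44.

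The genes that moved furthest, 15 in each direction, were taken among those whose groups did not overlap and whose call was the same without each array in turn. Their direction and size were what chose them. After Ms4a2 and Gata2 the rises were Cdh1 (E-cadherin, an adhesion molecule), Fcer1a (the IgE-binding alpha chain), Cpa3 (carboxypeptidase A3, a granule protease), Cd200r3 (a receptor found on basophils and mast cells), Csrp3 (a LIM protein best known from muscle), Cyp11a1 (the first enzyme of steroid hormone synthesis), Alox15 (a lipoxygenase), Perp (a target of p53), Il18r1 (an interleukin 18 receptor chain), Csf1 (the ligand of Csf1r), Hdc (histidine decarboxylase), Far2 (a fatty acyl reductase) and the transcription factor Ets1, with differences from 8.93 for Ets1 to 11 for Cdh1. Cdh1 averaged 13.41 ± 0.08 in SMP and 2.41 ± 0.08 in cMoP (SD, n = 4 each). The falls were S100a4 (a calcium-binding protein of motile cells), Ly86 (MD-1, partner of the receptor Cd180), Tifab, Raph1 (lamellipodin, an actin regulator), the protease Prtn3, the adhesion molecule Alcam, Nrp1 (a co-receptor of semaphorins), Irf8, the phosphatase Dusp22, Csf1r, the interferon-inducible Ifi209, Fn1 (fibronectin), Mgst1 (a glutathione transferase), the protease Elane and the receptor phosphatase Ptpro, with differences of -10.10 to -7.44. S100a4 measured 2.30, 2.49, 4.42 and 2.38 in SMP, against 13.76, 13.61, 11.69 and 12.93 in cMoP, the largest of these falls. Cdh1 thus lay near the lowest level in cMoP, and S100a4 in the SMP arrays other than SMP_WT_1. Both were above 11 in every array of the other group.

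Start-site windows from RefSeq (GRCm38.p6) are shown for 4 of the largest rises and 2 of the largest falls, so that the letters of candidate motifs can be read. Every window shown holds the motif marked in it, so the rises shown do not stand for the other rises. Each window runs from 250 bases before the transcription start to 50 bases after it, 5′ to 3′ on the strand of the gene. Capitals mark AGATAA or its reverse complement TTATCT, the core bound by GATA factors, in the first 4, and AGGAAG or its reverse complement CTTCCT, the core of PU.1 and other ETS factors, in the last 2. The windows lie at chr19:11623670-11623969 on the minus strand (Ms4a2), chr1:173227180-173227479 minus (Fcer1a), chr3:20242132-20242431 minus (Cpa3), chr16:44943428-44943727 plus (Cd200r3), chr10:79879417-79879716 plus (Prtn3) and chr10:79886062-79886361 plus (Elane).
Ms4a2: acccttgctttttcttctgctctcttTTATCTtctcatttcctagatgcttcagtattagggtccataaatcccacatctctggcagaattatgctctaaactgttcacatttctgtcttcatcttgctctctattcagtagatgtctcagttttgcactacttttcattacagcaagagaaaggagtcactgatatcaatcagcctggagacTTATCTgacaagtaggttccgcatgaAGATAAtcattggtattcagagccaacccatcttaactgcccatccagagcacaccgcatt
Fcer1a: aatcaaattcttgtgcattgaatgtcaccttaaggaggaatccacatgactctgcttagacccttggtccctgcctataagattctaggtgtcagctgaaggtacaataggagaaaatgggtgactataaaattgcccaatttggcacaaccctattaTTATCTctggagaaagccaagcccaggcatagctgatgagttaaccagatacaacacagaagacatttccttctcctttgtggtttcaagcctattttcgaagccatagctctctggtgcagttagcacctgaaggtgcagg
Cpa3: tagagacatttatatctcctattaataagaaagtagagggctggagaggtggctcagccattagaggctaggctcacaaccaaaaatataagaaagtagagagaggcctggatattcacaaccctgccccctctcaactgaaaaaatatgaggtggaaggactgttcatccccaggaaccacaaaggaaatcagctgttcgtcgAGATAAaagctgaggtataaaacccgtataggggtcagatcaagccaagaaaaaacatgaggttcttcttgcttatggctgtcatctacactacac
Cd200r3: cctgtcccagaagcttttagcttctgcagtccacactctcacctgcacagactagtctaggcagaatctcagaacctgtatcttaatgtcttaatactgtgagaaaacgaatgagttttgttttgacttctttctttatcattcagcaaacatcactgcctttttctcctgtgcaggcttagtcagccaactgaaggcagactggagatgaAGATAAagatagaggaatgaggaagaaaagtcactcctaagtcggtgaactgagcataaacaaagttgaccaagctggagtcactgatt
Prtn3: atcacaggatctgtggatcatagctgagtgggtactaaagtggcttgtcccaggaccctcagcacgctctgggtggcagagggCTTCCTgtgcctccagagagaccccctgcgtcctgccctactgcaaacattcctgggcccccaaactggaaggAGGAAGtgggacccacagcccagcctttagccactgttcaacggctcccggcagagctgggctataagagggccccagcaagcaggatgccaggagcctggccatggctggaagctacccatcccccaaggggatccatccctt
Elane: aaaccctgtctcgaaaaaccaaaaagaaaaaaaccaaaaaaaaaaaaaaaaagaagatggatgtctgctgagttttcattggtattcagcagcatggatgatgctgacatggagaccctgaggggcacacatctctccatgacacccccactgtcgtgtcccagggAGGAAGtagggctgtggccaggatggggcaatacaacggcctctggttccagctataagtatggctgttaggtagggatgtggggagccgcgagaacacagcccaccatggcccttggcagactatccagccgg

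Of the 15 largest rises, 11 genes matched a RefSeq entry, with 16 windows between them, and of the 15 largest falls 13 genes matched, with 15 windows. The GATA core stood in 4 of 16 windows of the rises (25%) and in 1 of 15 windows of the falls (6.67%), against 11.2% of all 32851 windows of this length. The ETS core stood in 6 of 16 windows of the rises (37.5%) and in 11 of 15 windows of the falls (73.3%), against 35.4% of all windows. The cores are different words of 6 letters, so no stretch matches both. The 4 rises shown above are the only ones of the 11 matched genes with a GATA core. The 2 falls shown are among 10 of the 13 matched genes with an ETS core. Ms4a2 held 3 GATA cores and Prtn3 held 2 ETS cores. These matches are letters in a window and show no binding.

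The IgE receptor and its signalling chain split by component. Of 26 genes tested in this list, 11 rose and 4 fell, 42.3% and 15.4% of the list against 12.2% and 21.3% of all tested genes, with a median difference of 0.66. Fcer1a measured 13.46, 13.06, 12.56 and 13.59 in SMP and 2.30 in every cMoP array, at least 1870-fold higher in SMP (adjusted p = 1.98e-06). The signalling gamma chain Fcer1g, which other Fc receptors also use, averaged 12.73 ± 0.49 in SMP and 12.37 ± 0.47 in cMoP (SD, n = 4 each), and its groups overlapped. Lat, the adaptor that assembles the signalling complex, measured 9.43, 8.87, 8.86 and 9.89 in SMP and the repeated low value 2.37 in every cMoP array. Prkcb, a protein kinase C, rose by 2.87 (adjusted p = 0.000432), Gab2, an adaptor of the receptor, by 3.08 (adjusted p = 0.00258), and Cd84, a SLAM family receptor, by 3.27 (adjusted p = 0.00106). The falls took in Sh2b2, an adaptor protein, at -3.70 (adjusted p = 0.0018), the phospholipase Plcg2 at -1.51 (adjusted p = 0.00469) and the phosphatase Ptpn6 at -1.43 (adjusted p = 0.00807). The alpha and beta chains thus stood above the lowest value in SMP but in no cMoP array, while the gamma chain and the kinase Prkcd (9.78 ± 0.62 in SMP, 9.69 ± 0.37 in cMoP, SD, n = 4 each) were high in both. Syk, the kinase that the receptor recruits, was chosen after its values were seen and averaged 8.63 in SMP and 8.65 in cMoP.

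Of 18 basophil and mast cell proteases and mediators on the arrays, 11 passed the filter on low values, and these 11 rose, with a median difference of 7.20. Of these 11, 6 were at the lowest value in every cMoP array, passed the filter through SMP alone and so had to differ. Mcpt8, the basophil protease, measured 14.91, 14.72, 14.65 and 14.57 in SMP, against 7.81, 7.63, 7.74 and 6.86 in cMoP. Mcpt8 was thus measured in cMoP too, and the groups stood 7.20 apart (adjusted p = 2.73e-06). Cpa3 measured 13.13, 13.73, 11.46 and 12.14 in SMP and 2.30 in every cMoP array, at least 1280-fold higher in SMP. Hdc, which makes histamine, measured 13.39, 13.60, 13.89 and 14.26 in SMP, against 4.65, 5.46, 4.48 and 4.48 in cMoP. Gzmb, the serine protease granzyme B, measured 10.67, 8.29, 10.94 and 11.60 in SMP and 2.30 in every cMoP array, with SMP_2 the lowest of its group. Srgn, the proteoglycan that packs granule contents, was high in both groups and rose by 1.86 (adjusted p = 0.000603).

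The proteases that mark tissue mast cells were not measured above the lowest value: Mcpt4, Tpsb2, Tpsab1, Mcpt1 and Mcpt2 stood at 2.30 in all 8 arrays. Of 12 mast cell genes on the arrays 3 passed the filter, of which 1 rose and 1 fell. Mitf, a transcription factor that mast cells need, measured 5.25, 2.30, 2.45 and 3.36 in SMP, against 9.72, 9.83, 9.22 and 8.78 in cMoP, and fell by 6.05 (adjusted p = 0.000406). Kit, the stem cell factor receptor of mast cells and early progenitors, measured 2.67, 2.67, 2.30 and 2.56 in SMP, against 2.72, 2.72, 5.43 and 3.26 in cMoP, and was not called. Slc6a4, the serotonin transporter, was called higher in SMP at 7.83 ± 1.40, with 2.30 in every cMoP array (SD, n = 4).

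Of 10 eosinophil genes on the arrays 7 passed the filter, of which 6 rose and none fell, with a median difference of 5.01. Prg2, Epx and Ccr3 were at the lowest value in every cMoP array and passed the filter through SMP alone, so they had to differ. Prg2, major basic protein, measured 10.64, 6.94, 6.61 and 8.38 in SMP and 2.30 in every cMoP array (adjusted p = 0.00172). Epx, eosinophil peroxidase, measured 8.20, 6.81, 7.77 and 5.83 in SMP and 2.30 in every cMoP array (adjusted p = 0.00042). Ccr3, the eotaxin receptor, which basophils also carry, averaged 7.31 ± 1.20 in SMP (SD, n = 4), at least 32.3-fold higher than in cMoP. Within SMP, Prg2 ran from 6.61 to 10.64, where Mcpt8 ran only from 14.57 to 14.91. The 6 eosinophil markers summed to 31.29 to 43.36 in SMP and 14.18 to 16.84 in cMoP, and the part of eosinophil-lineage cells in these levels was not tested.

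In the synthesis of eicosanoids, the lipid mediators made from arachidonic acid, 5 of 12 tested genes rose and 1 fell, and without SMP_WT_2 the rises numbered 3. Alox5, the enzyme that starts leukotriene synthesis, measured 11.29, 11.79, 11.15 and 11.66 in SMP, against 4.08, 4.02, 3.25 and 2.38 in cMoP, a rise of 8.04 (adjusted p = 1.13e-05). Alox15 measured 12.41, 12.50, 11.60 and 11.93 in SMP, against 2.46, 2.46, 2.30 and 2.46 in cMoP. Ptgs2, the inducible cyclooxygenase, measured 12.82, 12.40, 12.97 and 13.04 in SMP, against 8.59, 5.36, 10.86 and 11 in cMoP, where the arrays spread widely. Tbxas1, thromboxane synthase, fell by 1.40 (adjusted p = 0.00673), although its groups overlapped.

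Genes of granule release were higher more often than lower. Of 15 tested exocytosis genes, 8 rose and 1 fell, with a median difference of 1.13. Stx3, a membrane-fusion SNARE, measured 12.34, 11.62, 13.02 and 12.62 in SMP, against 7.95, 7.93, 7.75 and 7.71 in cMoP (adjusted p = 3.75e-05). Rab27b, a granule-docking GTPase, averaged 7.28 ± 0.58 in SMP (SD, n = 4) with every cMoP array at 2.30, at least 31.6-fold higher. The large GTPase Rab44 rose by 3.38 (adjusted p = 4.35e-05), the priming factor Unc13d by 3.09 (adjusted p = 0.00111) and its partner Stxbp2 by 2.10 (adjusted p = 0.00186). Stx11, another SNARE, was the member that fell, by 3.39 (adjusted p = 0.0143). Vamp3 and Vamp8 were high in both groups, with overlapping arrays.

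**Figure D2:**
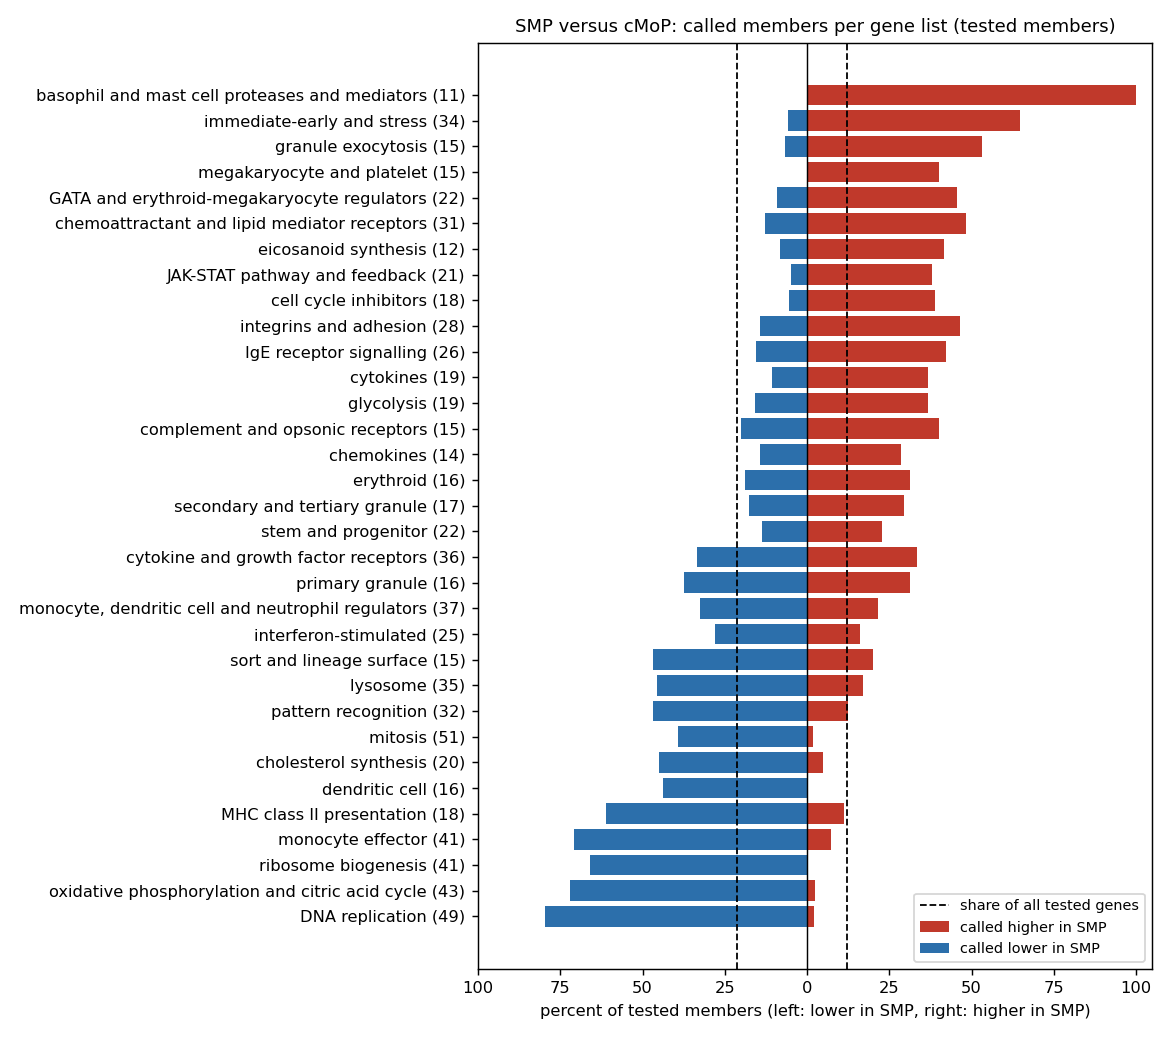
Percent of the tested members of each gene list called higher in SMP (red, to the right) or lower in SMP (blue, to the left), with dashed lines at the shares of all tested genes, 12.2% and 21.3%. Lists with 10 or more tested members are shown, with that number in brackets; basophil and mast cell proteases and mediators stand at 100% higher and DNA replication at 79.6% lower.

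Among transcriptional regulators of the GATA, erythroid and megakaryocyte programmes, 10 of 22 tested genes rose and 2 fell (45.5% and 9.09%). Gata1 measured 8.80, 9.39, 8.60 and 6.97 in SMP, against 2.33, 2.33, 2.38 and 2.33 in cMoP (adjusted p = 0.000109). Tal1, a partner of GATA factors, rose by 5.15 (adjusted p = 0.000195), the repressor Gfi1b by 5.04 (adjusted p = 3.78e-05), and Runx1 by 2.08 (adjusted p = 0.00181). Ikzf2 (Helios, of the Ikaros family) measured 12.05, 11.09, 12.46 and 11.57 in SMP, against 3.80, 3.80, 6.95 and 3.70 in cMoP. Lyl1, a relative of Tal1, fell by 1.78 (adjusted p = 0.0162), while Lmo2 and Myb overlapped between the groups at levels over 10.

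Among regulators of monocytes, dendritic cells and neutrophils, 8 of 37 tested genes rose and 12 fell (21.6% and 32.4%, both above the shares of all tested genes). Klf4, a zinc finger factor of monocytes, measured 6.69, 7.95, 7.70 and 4.89 in SMP, against 11.76, 11.69, 12.19 and 11.58 in cMoP (adjusted p = 0.00106). Tfec, a relative of Mitf, fell by 6.69 (adjusted p = 2.54e-05), Bcl11a by 5.84 (adjusted p = 0.000378) and the repressor Bcl6 by 4.01 (adjusted p = 0.0002). Cebpa, which drives myeloid commitment, was high in both groups and rose by 2.19, with 13.55 ± 0.40 in SMP and 11.35 ± 0.54 in cMoP (SD, n = 4 each, adjusted p = 0.000546). Nfil3 rose by 2.30 (adjusted p = 0.00112) and Gfi1 by 2.49 (adjusted p = 0.0123). Cebpb averaged 7.95 ± 0.57 in SMP and 7.60 ± 0.62 in cMoP (SD, n = 4 each) and was not called. Spi1, which encodes PU.1 and was chosen after its values were seen, averaged 6.99 in SMP and 7.77 in cMoP, with overlapping arrays. Irf8 and Klf4 were thus lower in SMP than in cMoP, at a Cebpa level above that of cMoP.

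Of 27 cytokines on the arrays 19 passed the filter, and 7 rose and 2 fell, the falls numbering 1 in 6 of the 8 fits without 1 array. Csf1 measured 11.87, 11.45, 11.75 and 12.50 in SMP, against 2.30, 2.30, 3.90 and 2.74 in cMoP, while its receptor Csf1r was high in cMoP, as given above. Il6 measured 12.71, 11.67, 13.18 and 13.19 in SMP, against 2.42, 2.30, 6.15 and 8.00 in cMoP. Its receptor chains ran the other way: Il6ra measured 3.87, 2.55, 3.79 and 3.86 in SMP, against 9.62, 9.41, 10.14 and 10.04 in cMoP, and Il6st, the shared chain gp130, measured 4.20, 3.78, 2.99 and 3.04 in SMP, against 10.60, 10.49, 10.46 and 10.21 in cMoP. Il6ra fell by 6.29 (adjusted p = 2.54e-05) and Il6st by 6.93 (adjusted p = 7.61e-06). Osm, oncostatin M, which also signals through gp130, measured 13.66, 13.01, 13.26 and 13.56 in SMP, against 8.40, 6.49, 8.40 and 9.91 in cMoP (adjusted p = 0.000583).

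Il4, the type 2 cytokine that basophils release, measured 9.96, 9.70, 9.98 and 9.82 in SMP and 2.30 in every cMoP array, at least 189-fold higher in SMP (adjusted p = 4.52e-06). Il4 passed the filter through SMP alone, so it had to differ. Il13ra1, a receptor chain for IL-4 and IL-13, measured 2.30, 5.32, 2.94 and 2.94 in SMP, against 7.99, 7.95, 7.18 and 6.71 in cMoP (adjusted p = 0.00225). Il4ra, chosen after its values were seen as the partner of this pair, measured 3.84, 3.26, 3.84 and 3.84 in SMP, against 5.89, 6.18, 5.39 and 6.52 in cMoP (adjusted p = 0.0019), and was not called with its probe sets averaged. Hgf, hepatocyte growth factor, measured 9.39, 9.04, 10.05 and 11.58 in SMP, against 2.58, 2.30, 2.30 and 2.30 in cMoP (adjusted p = 5.31e-05). Its receptor Met, chosen in the same way, measured 7.08, 5.88, 2.30 and 2.30 in SMP, against 11.95, 11.92, 11.17 and 10.95 in cMoP (adjusted p = 0.00028). Since Il4ra and Met were picked to complete these pairs, the opposite directions of ligand and receptor are a description of the genes shown. Tnf and Il1b did not separate: Tnf averaged 7.70 ± 1.52 in SMP and 7.65 ± 1.71 in cMoP (SD, n = 4 each).

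**Figure D3:**
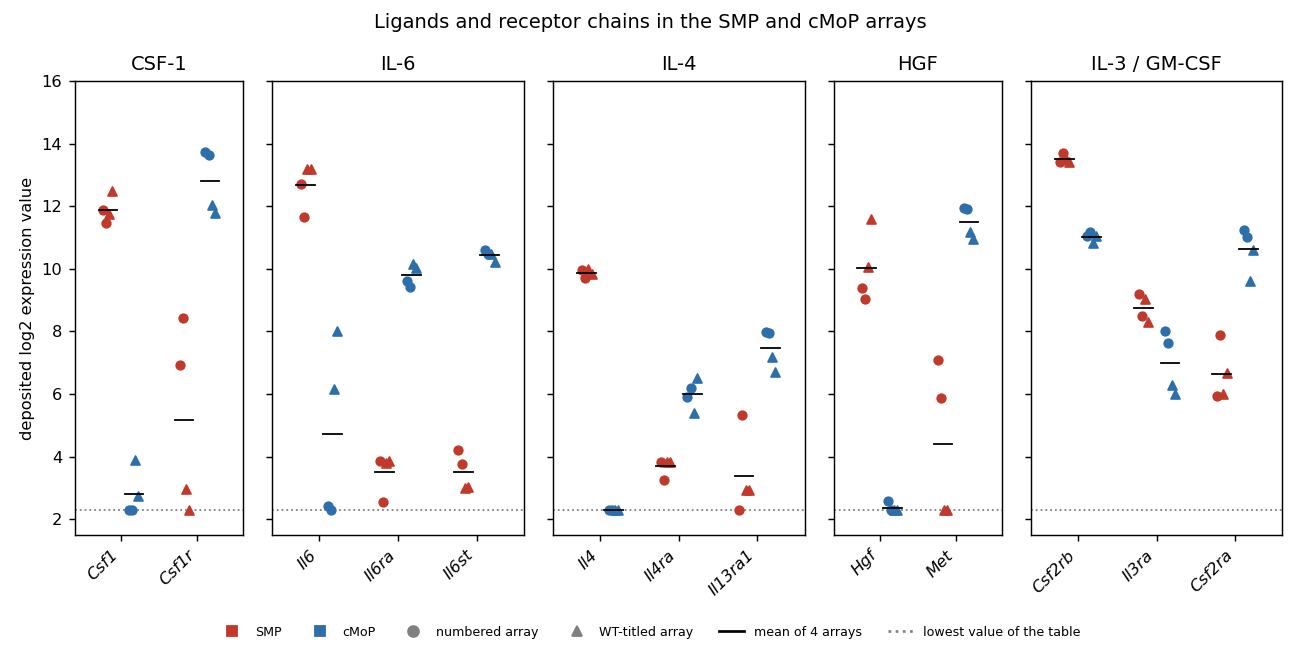
Deposited log2 expression values (y axis) of ligands and receptor chains (x axis) in the SMP arrays (red, left of each pair) and cMoP arrays (blue), with circles for numbered and triangles for WT-titled arrays, black lines for the means of 4 arrays and a dotted line at the lowest value. Csf1, Il6, Il4 and Hgf are higher in SMP, and Csf1r, Il6ra, Il6st, Il4ra, Il13ra1 and Met are higher in cMoP. In the last panel Csf2rb and Il3ra are higher in SMP and Csf2ra is higher in cMoP.

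Over the whole list of cytokine and growth factor receptors, 12 of 36 tested genes rose and 12 fell. The receptors of interleukin 3 and GM-CSF share a beta chain and differ in the alpha chain, and here these chains moved apart. Csf2rb2, the IL-3-specific beta chain of the mouse, measured 13, 13.56, 13.65 and 13.61 in SMP, against 9.23, 9.32, 8.32 and 8.33 in cMoP (adjusted p = 3.93e-05). The next 3 chains were chosen after their values were seen. Csf2rb, the common beta chain, rose by 2.49 (adjusted p = 2.11e-05) and Il3ra, the IL-3 alpha chain, by 1.76 (adjusted p = 0.0113). Csf2ra, the GM-CSF alpha chain, measured 5.94, 7.90, 6.01 and 6.68 in SMP, against 11.25, 11.02, 9.62 and 10.61 in cMoP, a fall of 3.99 (adjusted p = 0.000661). Csf2rb and Csf2rb2 are near-identical in sequence, and the array cannot tell how far each probe set reads the other gene.

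Both chains of the interleukin 18 receptor were high in SMP: Il18r1 measured 11.76, 12.68, 11.10 and 11.27 in SMP, against 2.66, 2.39, 2.67 and 2.66 in cMoP, and Il18rap averaged 12.19 ± 0.14 in SMP and 4.40 ± 0.73 in cMoP (SD, n = 4 each). Il7r, the interleukin 7 receptor chain that also binds TSLP with a second chain, measured 11.49, 12.02, 10.44 and 10.43 in SMP and 2.30 in every cMoP array, at least 445-fold higher in SMP. Tgfbr2 rose by 4.58 (adjusted p = 0.000725) and the co-receptor Tgfbr3 by 4.76 (adjusted p = 0.00015), while Tgfbr1 overlapped. Tnfrsf1a, a TNF receptor, fell by 4.63 (adjusted p = 0.000238). In the JAK-STAT list, 8 of 21 tested genes rose and 1 fell, with a median difference of 0.96. Stat4 rose by 4.51 (adjusted p = 0.000585), Jak2 by 2.05 (adjusted p = 0.00216) and Jak1 by 1.86 (adjusted p = 0.000883). The feedback inhibitors that STAT5 induces were among the rises, with Cish at 7.33, 7.13, 8.94 and 8.73 in SMP, against 2.38, 3.01, 2.54 and 2.54 in cMoP, and Socs2 at 6.86, 6.83, 4.84 and 7.05 in SMP and 2.30 in every cMoP array. Stat5a itself averaged 11.01 ± 0.12 in SMP and 10.99 ± 0.31 in cMoP (SD, n = 4 each).

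Receptors for chemoattractants and lipid mediators rose in number: 15 of 31 tested rose and 4 fell, 48.4% and 12.9% of the list, with a median difference of 1.18. The rises numbered 12 to 17 over the 8 fits without 1 array. Cxcr2, Ptger3 and Ccr3 were at the lowest value in every cMoP array, and S1pr3 in every SMP array. These genes passed the filter through 1 group alone and so had to differ. Cxcr2, the neutrophil chemokine receptor, measured 10.63, 10.86, 10.14 and 10.71 in SMP and 2.30 in every cMoP array, at least 312-fold higher in SMP (adjusted p = 4.31e-06). The anaphylatoxin receptors C3ar1 and C5ar1 were both higher. C3ar1 measured 11.89, 11.55, 11.06 and 10.92 in SMP, against 2.62, 2.34, 3.07 and 3.32 in cMoP. C5ar1 measured 13.27, 13.11, 14.01 and 13.81 in SMP, against 4.95, 6.30, 9.04 and 6.92 in cMoP. Ptger3, a prostaglandin E2 receptor, averaged 10.50 ± 0.71 in SMP (SD, n = 4), at least 294-fold higher than in cMoP, while Ptger2, another receptor of the same ligand, fell by 2.94 (adjusted p = 0.00119). S1pr3, a sphingosine phosphate receptor, was at 2.30 in every SMP array, against 7.19, 7.50, 6.69 and 5.84 in cMoP. Ccr2, the receptor that brings monocytes out of the marrow, was high in both groups and fell by 1.21 (adjusted p = 0.00172). Cxcr4, the marrow retention receptor, did not separate them.

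Of 20 chemokines on the arrays 14 passed the filter, and 4 rose and 2 fell. Ccl3 measured 15.00, 14.89, 14.79 and 14.82 in SMP, against 12.31, 9.98, 12.58 and 12.81 in cMoP (adjusted p = 0.00508), and Ccl4 measured 13.51, 12.08, 13.37 and 13.58 in SMP, against 5.55, 2.94, 9.45 and 8.59 in cMoP (adjusted p = 0.00204). Ccl6 rose by 2.80 (adjusted p = 0.000338). Ccl2, the main ligand of Ccr2, measured 3.30, 2.86, 4.56 and 2.86 in SMP, against 8.09, 6.54, 7.77 and 8.09 in cMoP (adjusted p = 0.000739).

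Of 28 integrin and adhesion genes tested, 13 rose and 4 fell. Itga2b, the alpha chain of the platelet integrin, measured 11.15, 11.30, 10.95 and 10.92 in SMP, against 3.21, 3.67, 3.62 and 3.62 in cMoP (adjusted p = 4.31e-06), and its partner Itgb3 rose by 2.19 (adjusted p = 0.000894). Itga2, the CD49b chain used to sort basophils, measured 6.29, 8.22, 3.44 and 5.89 in SMP and 2.30 in every cMoP array. Cd9 rose by 4.74 (adjusted p = 0.000126) and Cd69 by 4.18 (adjusted p = 7.42e-05). Itga4, the alpha 4 chain, fell by 2.13 (adjusted p = 0.0019) and Alcam measured 3.32, 6.88, 3.22 and 2.30 in SMP, against 12.27, 12.24, 12.48 and 10.62 in cMoP.

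The monocyte effector programme was the reverse. Of 41 genes tested, 29 fell and 3 rose, 70.7% and 7.32% of the list, with a median difference of -3.38. Ly86 measured 2.69, 4.58, 2.59 and 2.68 in SMP, against 12.69, 12.58, 11.33 and 11.86 in cMoP (adjusted p = 1.45e-05). Fn1 measured 2.77, 3.75, 4.50 and 3.81 in SMP, against 11.65, 11.69, 10.06 and 11.42 in cMoP. Tifab, an inhibitor of the adaptor TIFA, measured 2.30, 2.35, 2.35 and 2.30 in SMP, against 11.65, 11.62, 9.54 and 10.49 in cMoP. Not all of the list moved: S100a10 and Anxa2 were above 12 in both groups with overlapping arrays, and Anxa1 rose by 1.39 (adjusted p = 0.0039).

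Proteins of the primary granule, which early granulocyte and monocyte precursors make, divided within the list, with 5 rises and 6 falls among 16 tested. Elane, neutrophil elastase, measured 2.61, 2.30, 4.73 and 2.30 in SMP, against 9.44, 10, 11.53 and 10.84 in cMoP (adjusted p = 7.62e-05). Prtn3, proteinase 3 and its neighbour in the genome, measured 3.39, 4.64, 4.70 and 2.75 in SMP, against 11.84, 11.72, 11.49 and 12.85 in cMoP (adjusted p = 5.9e-05). Cathepsin G, another serine protease of the same granule, did not follow: Ctsg measured 13.36, 13.36, 11.70 and 12.35 in SMP, against 13.19, 13.14, 11.85 and 12.88 in cMoP. Mpo, myeloperoxidase, was high in both groups, at 12.04 ± 0.32 in SMP and 13.20 ± 0.24 in cMoP (SD, n = 4 each), and fell by 1.16 (adjusted p = 0.00322). Nkg7, a granule membrane protein, rose by 3.56 (adjusted p = 0.00156) and Serpinb1a, an inhibitor of these proteases, by 1.68 (adjusted p = 0.00783). Secondary and tertiary granule genes showed 5 rises and 3 falls among 17, but these counts rest on single arrays. Without SMP_WT_1 there were 2 rises and 6 falls, without cMoP_1 or SMP_1 2 rises and 2 falls, and without cMoP_2 or SMP_2 3 rises and 2 falls, and the WT-titled arrays alone called none in either direction. Ltf, named after its values were seen, was highest in SMP_WT_1 at 9.76, and Camp, an antimicrobial peptide gene whose call was lost without cMoP_1, reached 10.11 there, against 6.25, 6.36 and 6.76 in the other SMP arrays and 3.28, 3.89, 5.39 and 5.75 in cMoP. The neutrophil markers summed to 25.50 to 41.82 in SMP and 16.36 to 22.97 in cMoP. The part of neutrophil precursors in this was not tested.

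Of 32 receptors and signalling genes of innate recognition tested, 15 fell and 4 rose, 46.9% and 12.5% of the list, while 13 were not called. All SMP arrays lay below all cMoP arrays for 8 of them. Tlr2 measured 2.30, 2.57, 2.57 and 2.57 in SMP, against 8.76, 7.87, 9.24 and 9.20 in cMoP (adjusted p = 2.46e-05). Clec7a (dectin-1, a receptor of fungal glucan) measured 4.15, 2.75, 3.25 and 2.30 in SMP, against 10.98, 11.05, 9.34 and 10.25 in cMoP (adjusted p = 3.55e-05). Cd180, the partner of Ly86, fell by 5.12 (adjusted p = 0.0005). The rises included Irak3, an inhibitor of Toll-like receptor signalling, by 3.51 (adjusted p = 0.000378), the RNA sensor Ddx58 (RIG-I) by 4.79 (adjusted p = 3.49e-05) and Nlrp3 by 2.72 (adjusted p = 0.00281). Among complement and opsonic receptors, 6 of 15 tested rose and 3 fell, and of the 7 genes of the NADPH oxidase 1 rose and 2 fell. Cybb, the catalytic subunit of the phagocyte NADPH oxidase, measured 6.10, 6.77, 5.93 and 3.76 in SMP, against 10.39, 10.52, 9.59 and 11.54 in cMoP (adjusted p = 0.0014), while the cytosolic subunit Ncf1 rose by 1.51 (adjusted p = 0.000622).

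Genes of antigen presentation by MHC class II were mostly lower in SMP, with 11 falls and 2 rises among 18 tested and a median difference of -3.41. The other 5 were not called, among them the beta chain that pairs with H2-Aa, whose groups overlapped. That chain differed by -1.77 (adjusted p = 0.0522), near the threshold, and its call was the same in 7 of the 8 fits without 1 array. Its overlap came from cMoP_WT_2 at 6.13, against 9.97, 9.47 and 8.92 in the other cMoP arrays. Presentation itself was not measured. H2-Aa, a classical class II chain, measured 4.53, 4.13, 4.83 and 3.39 in SMP, against 10.40, 10.22, 10.08 and 7.07 in cMoP (adjusted p = 0.00149). Cd74, the invariant chain, measured 6.42, 7.12, 6.92 and 3.90 in SMP, against 11.43, 10.88, 10.78 and 8.29 in cMoP (adjusted p = 0.00458). The 2 genes that rose, H2-Oa and H2-Ob, encode the chains of H2-O, known as an inhibitor of peptide loading by H2-M. H2-Oa measured 11.29, 11.10, 9.49 and 9.51 in SMP, against 6.57, 6.93, 5.71 and 4.57 in cMoP (adjusted p = 4.83e-05). H2-Ob measured 9.57, 10.23, 9.75 and 11.17 in SMP, against 6.08, 5.88, 5.88 and 3.40 in cMoP (adjusted p = 0.00154). H2-DMb2, a chain of H2-M, fell by 4.77 (adjusted p = 0.00805), so the genes of the inhibitor and of its target differed in opposite directions. Dendritic cell genes gave 7 falls and no rise among 16 tested, of 20 on the arrays. The 5 dendritic cell markers measured summed to 12.85 to 15.43 in SMP, where Flt3, Xcr1 and Cd209a stood at 2.30 and Siglech at 2.33 in every array, and to 22.04 to 27.59 in cMoP. Cd209a, a lectin of dendritic cells, was at 2.30 in every SMP array, against 8.33, 7.97, 6.53 and 5.56 in cMoP (adjusted p = 0.000363).

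Of 35 lysosomal genes tested, 16 fell and 6 rose, 45.7% and 17.1% of the list, both above the shares of all tested genes. Ctsh, a cathepsin, measured 5.45, 2.30, 6.21 and 2.41 in SMP, against 11.83, 11.68, 11.12 and 11.33 in cMoP (adjusted p = 0.00109), and Ctss, the cathepsin that trims the invariant chain, measured 8.36, 9.23, 4.38 and 2.99 in SMP, against 13.84, 13.86, 12.12 and 12.57 in cMoP (adjusted p = 0.000514). Psap, the saposin precursor, fell by 4.13 (adjusted p = 4.02e-05) and Cd68 by 5.49 (adjusted p = 0.000716). Other cathepsins went the other way: Ctse measured 8.17, 8.70, 10.63 and 11.49 in SMP, against 3.25, 2.77, 7.69 and 7.60 in cMoP (adjusted p = 0.00044), and Ctsd measured 11.76, 11.14, 10.77 and 11.74 in SMP, against 9.05, 9.12, 7.70 and 9.02 in cMoP (adjusted p = 0.00146). In both groups the numbered arrays held more Ctss and less Ctse than the WT-titled arrays. Lamp2 and Laptm5 were above 12 in both groups with overlapping arrays.

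In the DNA replication list 39 of 49 tested genes fell and 1 rose, 79.6% and 2.04%, with a median difference of -2.34. Tk1, thymidine kinase, measured 6.79, 3.85, 5.68 and 4.90 in SMP, against 9.62, 9.65, 10.28 and 9.92 in cMoP (adjusted p = 0.00129). Gins1, of the replicative helicase, measured 7.37, 4.88, 6.60 and 4.90 in SMP, against 10.92, 10.63, 9.99 and 10.30 in cMoP (adjusted p = 0.00116). Orc1, of the origin recognition complex, measured 2.30, 2.30, 2.30 and 2.80 in SMP, against 5.86, 5.76, 5.94 and 6.62 in cMoP (adjusted p = 6.04e-05). Rrm2, a subunit of ribonucleotide reductase, was high in both groups and averaged 12.90 ± 0.46 in SMP and 13.31 ± 0.25 in cMoP (SD, n = 4 each), and with its probe sets averaged it was called lower, at -1.33.

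In the mitosis list 20 of 51 tested genes fell (39.2%), 1 rose and 30 were not called, with a median difference of -0.92, and the falls numbered 12 without cMoP_1, 13 without cMoP_2, 11 without cMoP_WT_2 and 13 with cMoP_1 and cMoP_2 averaged. Mki67, the proliferation antigen Ki-67, measured 11.72, 11.12, 11.70 and 11.91 in SMP, against 11.92, 11.85, 11.52 and 12.34 in cMoP, and its groups overlapped. Aurkb, a mitotic kinase, fell by 2.60 (adjusted p = 0.00587) and Bub1, of the spindle checkpoint, by 1.89 (adjusted p = 0.00153). Cks2, a subunit of cyclin-dependent kinases, was the rise, by 1.40 (adjusted p = 0.00584). Of 18 cell cycle inhibitors tested, 7 rose and 1 fell. Trp53inp1 rose by 2.73 (adjusted p = 0.00369), the pocket protein Rbl2 by 2.24 (adjusted p = 0.00656), the cyclin Ccng2 by 1.53 (adjusted p = 0.0011) and Btg1 by 1.30 (adjusted p = 0.00214), while the pocket protein Rbl1 fell by 1.42 (adjusted p = 0.0039), a call lost with its probe sets averaged. The WT-titled arrays alone, with 2 arrays a group, called 18 replication genes and 1 mitosis gene lower and no inhibitor higher.

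**Figure D4:**
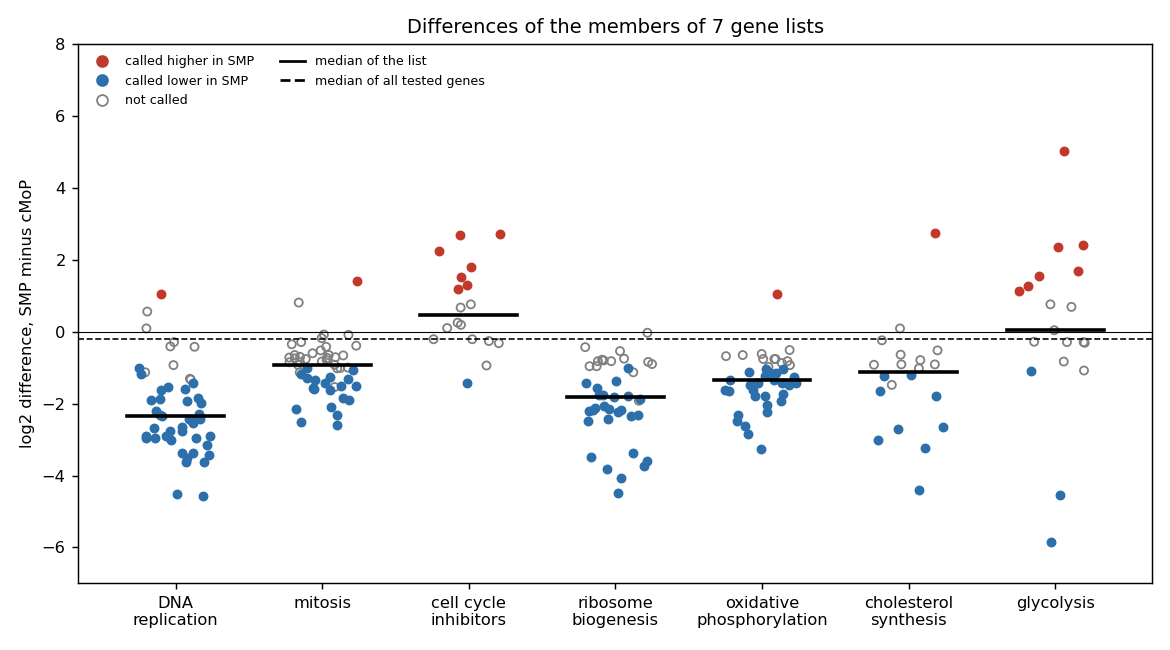
Log2 difference, SMP minus cMoP (y axis), of each tested member of 7 gene lists (x axis), in red where called higher, blue where called lower and open where not called, with solid lines at each list's median and a dashed line at the median of all tested genes, -0.21. DNA replication has the lowest median at -2.34, mitosis stands at -0.92 and cell cycle inhibitors at 0.46.

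Genes of ribosome biogenesis and respiration were more often lower than higher as well. Ribosome biogenesis showed 27 falls and no rise among 41 tested genes, with a median difference of -1.83. Rrp1b measured 3.62, 7.41, 4.45 and 5.96 in SMP, against 9.42, 9.37, 9.81 and 10.80 in cMoP (adjusted p = 0.00523), and Nop16 measured 2.77, 2.77, 2.76 and 3.96 in SMP, against 6.38, 6.77, 6.39 and 6.70 in cMoP (adjusted p = 0.000328). Oxidative phosphorylation and the citric acid cycle showed 31 falls and 1 rise among 43 tested, with a median of -1.35. The falls numbered 21 without cMoP_WT_2, 23 without cMoP_1, 33 without cMoP_WT_1 and 23 with cMoP_1 and cMoP_2 averaged. The rise was lost without SMP_1, cMoP_2, cMoP_WT_1 or SMP_WT_2. Fh1, fumarase, measured 8.49, 8.91, 7.08 and 7.60 in SMP, against 11.31, 11.03, 10.22 and 10.88 in cMoP (adjusted p = 0.000253). Cycs, cytochrome c, fell by 2.61 (adjusted p = 0.00152). The WT-titled arrays alone called 5 respiration genes lower.

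Glycolysis showed 7 rises and 3 falls among 19 tested, with a median of 0.04. Slc2a3, a high-affinity glucose transporter, measured 13.52, 13.06, 13.46 and 13.33 in SMP, against 8.36, 7.95, 9.03 and 7.94 in cMoP (adjusted p = 2.18e-05). Pfkp, a phosphofructokinase, rose by 2.35 (adjusted p = 0.000238) and Slc2a1 by 1.26 (adjusted p = 0.00082). Ldhb, the lactate dehydrogenase chain that favours pyruvate, measured 2.30, 2.37, 2.30 and 2.30 in SMP, against 8.91, 9.09, 7.09 and 7.54 in cMoP (adjusted p = 6.19e-05). Pdk1, a kinase that inhibits pyruvate dehydrogenase, fell by 4.53 (adjusted p = 0.000465). Aldoa did not separate the groups. Cholesterol synthesis showed 9 falls and 1 rise among 20 tested. Fdps, farnesyl diphosphate synthase, measured 4.41, 3.05, 2.96 and 2.40 in SMP, against 7.33, 7.09, 7.71 and 8.25 in cMoP (adjusted p = 0.000675), Insig1 fell by 3.01 (adjusted p = 0.000218) and Lss, lanosterol synthase, rose by 2.75 (adjusted p = 0.00401).

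Immediate-early and stress genes, which cells induce within minutes of handling or stimulation, showed 22 rises and 2 falls among 34 tested, 64.7% and 5.88%. The falls numbered 4 without cMoP_2, 2 without SMP_1 and 1 without each of the other 6 arrays. Ier3 measured 13.60, 13, 14 and 13.97 in SMP, against 7.29, 4.42, 9.32 and 9.28 in cMoP (adjusted p = 0.000931). Egr2 measured 13.31, 11.43, 14.30 and 13.79 in SMP, against 6.74, 3.73, 9.60 and 9 in cMoP (adjusted p = 0.00147). Rgs1, an inhibitor of G protein signalling, rose by 6.15 (adjusted p = 4.47e-05) and Ddit4, an inhibitor of mTOR, by 5.01 (adjusted p = 0.000383). Atf3 went the other way and measured 6.23, 3.57, 5.05 and 5.31 in SMP, against 10.06, 8.25, 9.41 and 10.26 in cMoP (adjusted p = 0.00202). Fos was above 13 in all 8 arrays and did not separate the groups. SMP_2 and cMoP_2 held the lowest Egr2 and Ier3 of their groups, and the same 2 arrays held the lowest Il6, Ccl4, Osm and Ptgs2. How far the handling of each sort moved these cytokine genes was not tested.

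Interferon-stimulated genes were mixed, with 4 rises and 7 falls among 25 tested and a median difference of 0.04, shares of 16% and 28% near those of all tested genes, and quantile normalisation gave 8 rises. Isg20 measured 8.26, 8.03, 6.34 and 6.85 in SMP, against 3.92, 3.98, 2.30 and 2.62 in cMoP (adjusted p = 5.02e-05), and Ifi27 rose by 3.87 (adjusted p = 0.000367). Gbp3 measured 2.64, 4.80, 2.85 and 2.61 in SMP, against 8.47, 8.32, 7.90 and 8.61 in cMoP (adjusted p = 0.000369), and Mx1 fell by 3.03 (adjusted p = 0.00951).

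Surface proteins commonly used to sort progenitors gave 3 rises and 7 falls among 15 tested. Cd34 measured 7.45, 7.11, 7.60 and 6.35 in SMP, against 10.10, 10.22, 10.95 and 9.44 in cMoP (adjusted p = 0.00129). Flt3 was at 2.30 in every SMP array, against 7.29, 6.93, 8.28 and 6.47 in cMoP, at least 30.8-fold lower in SMP (adjusted p = 0.00014). Cx3cr1 fell by 4.61 (adjusted p = 3.81e-05), Msr1 by 3.71 (adjusted p = 0.00035) and Cd48 by 2.37 (adjusted p = 0.00126). Besides Il7r, Fcgr3 (CD16) rose by 2.05 (adjusted p = 0.00222). Fcgr2b (CD32) was the third rise, at 1.26 (adjusted p = 0.021), and was called in 4 of the 8 fits without 1 array. Adgre1 (F4/80) fell by 1.89 (adjusted p = 0.0242) with overlapping arrays and was called in 3 of those 8 fits. Itgam, Cd27, Ceacam1, Spn and Kit were not called, and Slamf1 was at 2.30 in all 8 arrays. Among stem and progenitor genes, 5 of 22 tested rose and 3 fell. Angpt1, a growth factor, averaged 8.36 ± 0.95 in SMP (SD, n = 4), at least 66.9-fold higher than in cMoP, and Cd93 fell by 3.16 (adjusted p = 4.13e-05).

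Markers of other cell types were summed in the same way. The 4 erythroid markers measured summed to 12.90 to 22.75 in SMP and 9.21 to 10.76 in cMoP, and Hba-a1 was at 2.30 in all 8 arrays. Slc4a1, the red cell anion exchanger, measured 9.25, 8.35, 10.15 and 5.45 in SMP, against 3.75, 2.33, 2.90 and 2.31 in cMoP (adjusted p = 0.00434). Of the erythroid list, 5 of 16 tested genes rose and 3 fell (31.2% and 18.8%). Without SMP_1 or SMP_WT_1 there were 3 rises and 3 falls, without cMoP_WT_1 or cMoP_WT_2 3 rises and 2 falls, and without cMoP_2 4 rises and 1 fall. The 6 megakaryocyte and platelet markers summed to 23.51 to 28.86 in SMP and 15.96 to 17.10 in cMoP, with Itga2b the main contributor, while Gp9 averaged 3.31 in SMP and 3.28 in cMoP. The 6 markers of group 2 innate lymphoid cells summed to 30.38 to 36.38 in SMP and 14.77 to 16.97 in cMoP, through Il7r, Rora and Thy1, while Gata3 and Il2ra were at 2.30 in all 8 arrays and Klrg1 at 2.30 or 2.31. The B cell list held 1 fall among 7 tested of 15 genes, Ighm, by 4.55 (adjusted p = 0.0147) but by 0.84 and not called with its probe sets averaged, and Pax5 was at 2.30 in all 8 arrays. The megakaryocyte and platelet list held 6 rises and no fall among 15 tested of 20 on the arrays, and the list of group 2 innate lymphoid cells 5 rises and no fall among 6 of 10, where Il7r passed the filter through SMP alone and had to differ. Few genes of mature lymphocytes and stroma passed the filter: 2 of 13 T cell genes, of which 1 rose, 5 of 13 NK cell genes, of which 3 rose and 2 fell, and 4 of 14 stroma genes, of which 2 rose. The 2 NK cell falls were lost in 7 of the 8 fits without 1 array and with cMoP_1 and cMoP_2 averaged, and 1 stroma gene rose in 6 of the 8 fits. The part of these cell types in the differences was not tested.

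The difference between SMP and cMoP was then tested between the sets. For 43 genes (0.391% of 10986) the difference itself differed between the WT-titled and the numbered arrays, at the same thresholds, and 990 genes had an unadjusted p under 0.05. No gene passed in limma without cMoP_1, without cMoP_2 or with the average of these arrays, where 521 had an unadjusted p under 0.05, and 150 passed without SMP_1. In 36 of the 43, the gene was at its low level in 3 of the 4 combinations of group and set. Rimkla, a ligase of N-acetylaspartylglutamate synthesis, measured 2.30, 2.30, 9.12 and 8.66 in SMP and 2.30 in every cMoP array (adjusted p = 0.00768). Nt5e (CD73) measured 2.30, 2.30, 6.79 and 8.15 in SMP and 2.30 in every cMoP array (adjusted p = 0.0405). Sucnr1, the succinate receptor, ran the other way within SMP, at 7.20, 7.03, 2.30 and 2.30, with 2.30 in every cMoP array (adjusted p = 0.00768). Lamb1, Homer2, Oosp1 and Fabp4 were also measured in the numbered SMP arrays above the rest. Galc, a lysosomal galactosylceramidase, measured 2.74, 2.65, 2.65 and 2.65 in SMP, against 6.85, 7.13, 2.74 and 2.68 in cMoP (adjusted p = 0.0145), and Hpgd and Slfn1 shared this pattern.

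**Figure D5:**
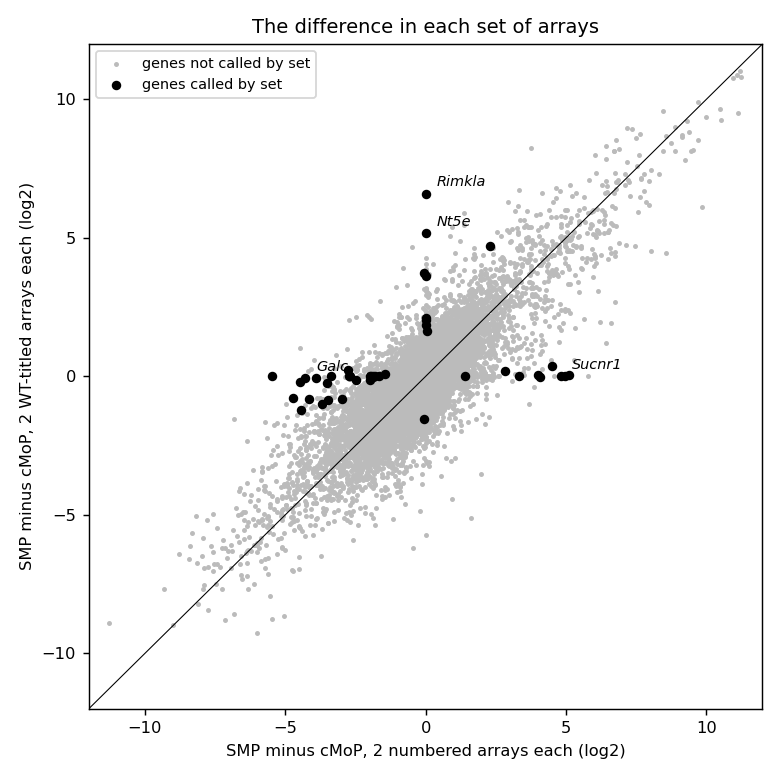
Difference of means, SMP minus cMoP, in the 2 WT-titled arrays per group (y axis, log2) against the 2 numbered arrays per group (x axis, log2) for the 10986 tested genes, with the 43 genes called between the sets in black and a line of equal differences. Most black points lie on an axis, where the gene differed in 1 set only, such as Rimkla at 6.60 in the WT-titled and 0 in the numbered arrays.

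Levels in other groups of the series, given without a test, place these genes. Gata2 measured 9.40 in the GMP array and 8.62 in the MDP array, and 13.80 and 13.96 in 2 arrays of spleen basophils, beside means of 14.47 in SMP and 3.44 in cMoP. Ms4a2 measured 9.78 in GMP, 8.40 in MDP, 13.80 in both basophil arrays and 2.30 in both SatM arrays. Mcpt8 measured 14.91 in both basophil arrays, against a mean of 14.71 in SMP. Il7r measured 11.07 and 9.65 in basophils, against a mean of 11.10 in SMP. Kit measured 8.03 in GMP and 6.79 in MDP, above both progenitor groups. Csf1r measured 11.87 in GMP, 12.19 in MDP, 14.49 and 14.44 in SatM, and 10.83 and 9.17 in basophils, all above its SMP mean of 5.16. Prg2 measured 12.69 and 11.51 in SatM, above its SMP mean of 8.14, and 2.30 in both arrays of inflammatory monocytes.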

How the data were processed

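The data are Affymetrix Mouse430_2 arrays of sorted cells. The authors deposited 1 table of expression values for 45101 probe sets. The values lie between 2.30 and 16.02 and were taken as log2 from their range; the background correction, normalisation and summary that made the deposited log2 values are not given in the sources used here. Probe sets with 1 gene symbol (34945, named from the GEO platform annotation) were kept, 932 with several symbols and 9160 with none were left out, and each of 18193 genes was read from whichever of its probe sets averaged highest across all 35 arrays.

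Genes with at least 2 of the 8 arrays above the array's median were fitted with limma 3.58.1 (R 4.3.3; lmFit, eBayes with trend) on cell type and set, numbered or WT-titled, with 5 residual degrees of freedom. P-values were adjusted by Benjamini-Hochberg over all 10986 genes, and a call needs an adjusted p under 0.05 and an absolute difference of at least 1. The difference between the sets was tested as an interaction. The script was checked on simulated data. Array number and not depth limits the precision.

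Gene lists, 41 in all with 899 different genes on the arrays, and the genes to name were chosen with earlier results of these data known. The rule named the 4 markers, the surface list, the 15 largest rises and falls, up to 6 called genes a direction and 3 uncalled genes of each list, and the 10 largest differences between sets, 391 genes in all. After their values were seen the text was narrowed to genes whose call was the same in all 8 fits without 1 array, other than Fcgr2b, Adgre1, Camp and Oosp1. The beta chain that pairs with H2-Aa, described without its symbol, is a further exception. No named gene had probe sets called in opposite directions.

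Deviations from the group mean correlated at 0.225 to 0.36 across genes in the 4 pairs of the same number. Pairs of other number within a set correlated too, at 0.181 and 0.344 for numbered and 0.096 and 0.125 for WT-titled arrays. A shift shared by a set enters these values, so they do not show that the numbers pair the arrays. Within the sets the correlation was 0.057 for numbered and 0.236 for WT-titled arrays. The main fit did not pair arrays, and the replicate block did so as an alternative. Quantile normalisation, other filters, probe-set rules, fits and left-out arrays were tried as alternatives, and the average of cMoP_1 and cMoP_2 was added after seeing the data.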

Additional observations from a re-analysis of the deposited data

Results flagged for a closer look

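In the 4 arrays of a group, 1 array stood apart from the rest by more than Dixon's critical value allows for the group's range. This was so in 49 of 438 groups of 4 values of the genes named in the report, 11.2% of them. A chance rate of about 1 in 20 holds only for independent, normally distributed values. Some flagged groups hold tied low values, and arrays of the same group were not equally close to each other. The share of 11.2% therefore cannot be set against that rate, and no excess of odd arrays is concluded from it. In 22 of the 49 the group's range was at least 1 unit. The array cMoP_WT_1 accounted for 15, more than any other array. Flags at the lowest value or at a repeated low value of a probe set have no order, and above or below there describes only the printed numbers. Such flags include Cdh1 and Fabp4 in cMoP_1, Gata1, Alox15 and Perp in cMoP_WT_1, Ldhb in SMP_2 and Tlr2 in SMP_1.

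In cMoP_WT_1, values above the rest of cMoP were 5.54 for Cd27, 4.35 for Gata2, 6.95 for Ikzf2, 4.74 for Rora, 12.67 for Insig1, 11.45 for Stat5a, 2.92 for Siglech and 2.38 for Gata1, all given on the log2 scale. Below the rest there were 7.70 for Ctsd, 9.96 for Cycs, 10.06 for Fn1, 5.37 for Gab2, 12.81 for Psap, and 2.30 for Alox15 and Perp. In cMoP_WT_2, Alcam (10.62), H2-Aa (7.07) and H2-Ob (3.40) were below the rest of cMoP and Cks2 (12.33) above. In cMoP_1, Cdh1 and Fabp4 (2.30) and Itga2b (3.21) were below and Hgf (2.58) above, and in cMoP_2 Hdc was above at 5.46 and Il18r1 below at 2.39.

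In SMP_WT_1, Camp (10.11), Cebpa (14.14), Elane (4.73), Gp9 (3.41), Ptger2 (2.70) and S100a4 (4.42) were above the rest of SMP, and Lyl1 (4.91) and Socs2 (4.84) below. In SMP_2, Cd27 (3.66), Gbp3 (4.80), Ly86 (4.58), Msr1 (3.66) and Ldhb (2.37) were above, and Ccl4 (12.08), Il4ra (3.26), Il6ra (2.55) and Runx1 (12.22) below. In SMP_WT_2, Nop16 (3.96) and Orc1 (2.80) were above and Gfi1b (6.88) below. In SMP_1, Cx3cr1 (4.42) and Galc (2.74) were above, and Csf2rb2 (13) and Tlr2 (2.30) below.

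The difference between SMP and cMoP itself differed between the sets for 10 genes named in the report, given as the difference in the WT-titled arrays minus that in the numbered arrays. It was 6.60 for Rimkla, 5.51 for Hpgd, 5.17 for Nt5e, 4.27 for Slfn1 and 4.24 for Galc, and it was -5.07 for Lamb1, -4.96 for Homer2, -4.82 for Sucnr1, -4.15 for Oosp1 and -4.10 for Fabp4. None of these calls held in limma without cMoP_1, without cMoP_2 or with these arrays averaged, where no gene passed.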

How the results depend on the processing

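In the comparison of SMP with cMoP, 3686 genes were called. The count moved by over 1.5 times with every probe set tested by itself (5785 of 20491 probe sets), with the WT-titled arrays alone (1359 genes, 2 arrays a group) and with an absolute difference of at least 2 required (1929). Leaving out 1 array at a time gave 2826 genes (without cMoP_1) to 3517 (without SMP_2). The replicate block, which pairs arrays of the same number, gave 3597, and of the genes named it changed only the call of Oosp1 (2.44, no longer past the threshold). Quantile normalisation moved the median difference of all tested genes to -0.11 (it was -0.21) and the split to 1640 higher and 2127 lower, against 1342 and 2344. The other alternatives gave 2572 (numbered arrays alone) to 4285 genes (a fit of 20 arrays).

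For the difference between the sets, 43 genes were called. Quantile normalisation gave 5, eBayes without trend 10, robust eBayes 7, array weights 5, and the average of cMoP_1 and cMoP_2 gave 0 in limma, where 521 genes had an unadjusted p under 0.05. Leaving out 1 array at a time gave 0 (without cMoP_1, with 549 at an unadjusted p under 0.05, or without cMoP_2, with 532) to 150 (without SMP_1). The cause was not tested.

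No named gene changed direction past a threshold under any alternative run. The named genes had been narrowed to those with stable calls, so stability to left-out arrays was built in for most of them. Of 219 named genes tested, 75 gained or lost their call under at least 1 alternative. With the WT-titled arrays alone 51 named genes lost their call, with the numbered arrays alone 18, and with no filter on dim genes 6.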
